A study of Mus musculus with 6 samples.

Results

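The RNA of 10 cadherin genes was examined in control and senescent mouse adult fibroblasts (MAFs): *Cdh1*, *Cdh2*, *Cdh3*, *Cdh4*, *Cdh5*, *Cdh6*, *Cdh10*, *Cdh11*, *Cdh13* and *Cdh15*. Members were chosen by gene name, and 10 of 10 were found among the 43346 genes of the count table. MAFs are primary cells grown at 3% oxygen, here taken from ear tissue of female adult C57BL6/J animals. Control cells were sham irradiated, while senescent cells received 20 Gy of X-rays and were cultured for 21 more days. Both groups were then given 100 nM dexamethasone, a glucocorticoid that sets the circadian clocks of cultured cells to a common phase, for 2 hours and were collected 12 hours later. Each group had 3 libraries of polyadenylated RNA made with a stranded kit from 200 ng of RNA, and a single time point was sampled, so nothing can be said of a rhythm. The time from sham irradiation to collection and the number of animals behind the cultures are not given in the sources used here. Nothing states that replicates came from separate cultures, so p-values measure only the spread between these libraries, which may be technical.

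Classical cadherins are calcium-dependent adhesion proteins that span the membrane, bind cadherins of the neighboring cell through their outermost repeats and hold catenins through their cytoplasmic tail, which ties the junction to actin. Type I cadherins carry a conserved histidine, alanine and valine motif in the outermost repeat, and type II cadherins lack it. E-cadherin (*Cdh1*) and P-cadherin (*Cdh3*) are typical of epithelia, N-cadherin (*Cdh2*) and cadherin-11 (*Cdh11*) are the cadherins best known in fibroblasts and other mesenchymal cells, and VE-cadherin (*Cdh5*) is typical of endothelium. The group is not uniform: T-cadherin (*Cdh13*) has no cytoplasmic tail and is held by a lipid anchor, and M-cadherin (*Cdh15*), typical of muscle precursors, is set apart from the other type I genes in many classifications.

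In senescent MAFs, *Cdh11* replaced *Cdh2* as the cadherin with the highest level, *Cdh3* was 6.88-fold lower and *Cdh6* was 30.3-fold higher (log2 fold change 4.92, and 4.32 without control replicate 2, which held 1 count). Of the 10 genes, 8 had enough counts for a test by edgeR's quasi-likelihood method, and all 8 were called at an adjusted p under 0.05, 6 of them higher (*Cdh1*, *Cdh5*, *Cdh6*, *Cdh10*, *Cdh11* and *Cdh13*) and 2 lower (*Cdh2* and *Cdh3*). *Cdh4* and *Cdh15* fell below the filter. Calls were frequent in this comparison: of the 17589 genes tested, 70.3% were called, 36.2% higher and 34.1% lower, so that calls as such do not set the cadherins apart. With the limits stated in the study's methods, which ask for a fold over 2 and for an unadjusted p under 0.05, 5 cadherins were higher and 1 was lower, where 17.8% and 12.3% of all tested genes passed these limits in each direction. Of these 5, *Cdh5*, *Cdh6* and *Cdh10* were under 0.2 CPM in control, where 84.8% of tested genes were called higher. With at least 10 counts asked of every library, those genes were not tested and 2 cadherins passed upward. The results text of the study prints a stricter p limit, 1e-05, and with it 3 cadherins were higher (*Cdh1*, *Cdh6* and *Cdh11*) and 1 was lower (*Cdh3*), beside 8.27% and 7.0% of all tested genes. The values of the 3 control and the 3 senescent libraries did not overlap in 9 of the 10 cadherins, and they did not overlap in 75.3% of all genes tested. The latter share leaves out genes below the filter, such as *Cdh4* and *Cdh15*. The median log2 fold change of all tested genes was 0.01, so changes given below are close to changes relative to the typical gene.

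Total counts lay between 50288454 and 82229553 per library, and a gene with 0 counts in a control library could still have up to 3 counts there, a mean of 0.0572 CPM (counts relative to the library total, after TMM scaling in edgeR). This limit covers counting error alone. Libraries of 1 group differed by more than sampling noise in every pair, with senescent replicate 3 most apart. Its median squared standardised difference was 24.8 times the value that chance gives from replicate 1 and 33.2 times from replicate 2. Between senescent replicates 1 and 2 this squared measure was 2.33 times the chance value. Without senescent replicate 3, the 8 cadherins kept their direction and call. Values are mean ± SD over 3 libraries per group, changes are log2 fold changes of senescent over control with their standard error (SE), and adjusted p-values are from the edgeR test with Benjamini-Hochberg adjustment over all genes tested. Coordinates are those of mm10.

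**Figure D1:**
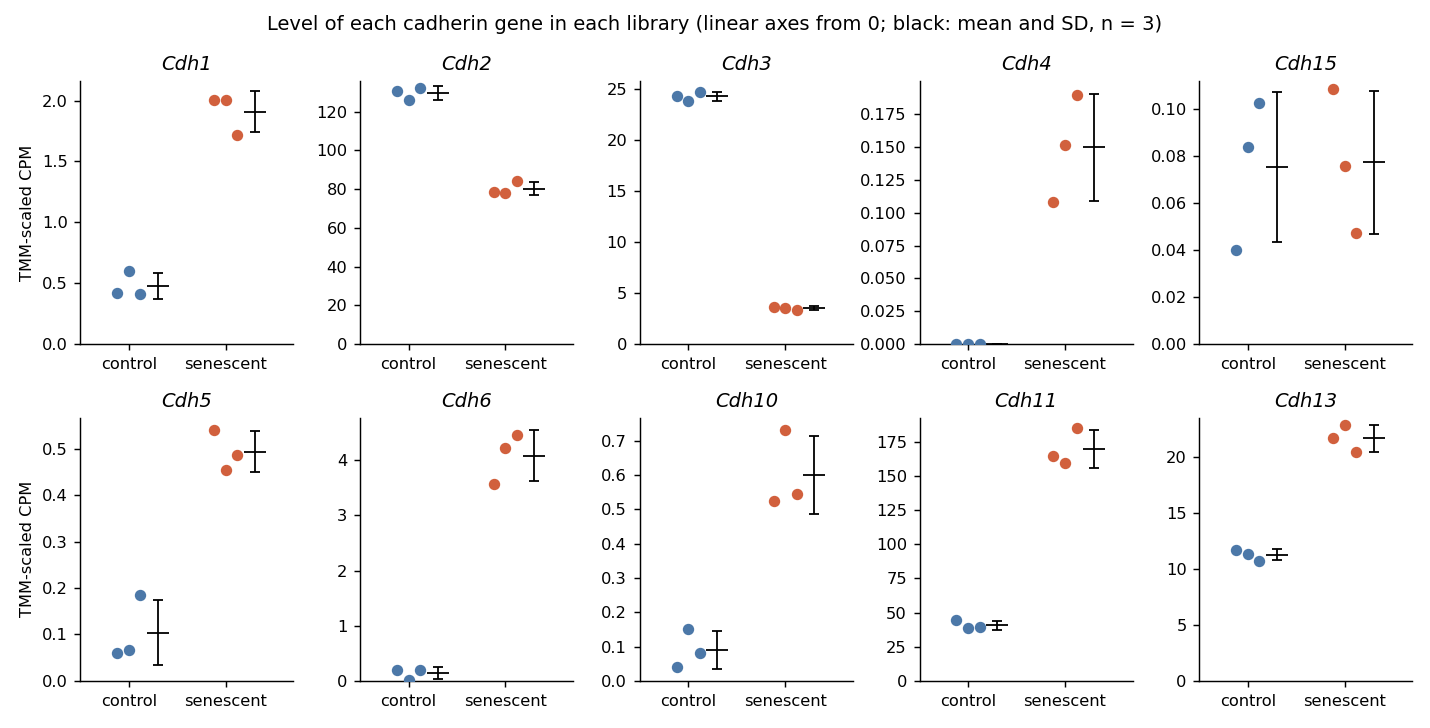
Level of each cadherin gene in TMM-scaled CPM (vertical axes, linear from 0, each with its own scale) in the 3 control and 3 senescent libraries (points), with the group mean and SD in black. Senescent points lie above all control points for *Cdh1*, *Cdh4*, *Cdh5*, *Cdh6*, *Cdh10*, *Cdh11* and *Cdh13* and below them for *Cdh2* and *Cdh3*, and the groups overlap for *Cdh15*.

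Of the type I cadherins, *Cdh2* (ENSMUSG00000024304, chromosome 18 from 16588877 to 16809246, minus strand) had the highest level. It was at 131, 126 and 132 CPM in control replicates 1, 2 and 3 and at 78.6, 78.1 and 84.2 CPM in senescent replicates 1, 2 and 3. All senescent values were thus below the lowest control value. The mean fell from 130 ± 3.38 to 80.3 ± 3.36 CPM (SD, n = 3 per group), 1.61-fold, with a log2 fold change of -0.69 (SE 0.06, adjusted p = 1.75e-05, edgeR). This change passed the adjusted threshold but not the fold limit of the study.

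*Cdh3* (ENSMUSG00000061048, chromosome 8 from 106510913 to 106556908, plus strand) was the cadherin with the smallest p. Its level was 24.3, 23.8 and 24.7 CPM in the control libraries and 3.68, 3.57 and 3.34 CPM in the senescent libraries, and the spread within each group was small beside the gap between them. The log2 fold change was -2.78 (SE 0.08, adjusted p = 5.75e-08, edgeR), with a 95% interval from -2.97 to -2.60.

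*Cdh1* (ENSMUSG00000000303, chromosome 8 from 106603351 to 106670246, plus strand) was higher in senescent cells at a low level. Control replicates 1, 2 and 3 held 21, 36 and 20 of its reads, and senescent replicates held 111, 159 and 145. The mean went from 0.477 ± 0.108 to 1.91 ± 0.165 CPM, and the log2 fold change was 1.98 (SE 0.19, adjusted p = 4.09e-05, edgeR), which is 3.93-fold. The senescent level of *Cdh1* remained below that of *Cdh3* in the same libraries.

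Levels of epithelial markers moved in both directions beside *Cdh1* and *Cdh3*. Of 13 markers of keratinocytes and other epithelia, 8 were tested, of which 3 were higher and 3 lower. Their summed level lay between 43.4 and 48.0 CPM in the control libraries and between 15.3 and 17.5 CPM in the senescent libraries. Most of the control sum was *Krt19* and *Trp63*, with means of 26.4 and 13.1 CPM. *Krt5* and *Krt10* were not called, with log2 fold changes of 0.58 and -0.01. *Krt19*, *Krt8* and *Trp63* were lower, with log2 fold changes of -2.36, -1.90 and -1.65. *Dsc3*, *Cldn4* and *Krt18* were higher, with 4.93, 3.50 and 0.75. No marker of the list was at 0 in every library, and *Epcam*, a surface protein of most epithelia, had at most 13 counts in any library. The part of such cells in the cadherin changes was not tested, and in bulk RNA fewer cells of a type and less RNA per cell cannot be told apart.

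R-cadherin (*Cdh4*, ENSMUSG00000000305, chromosome 2 from 179442431 to 179899373) had 0 counts in every control library and 6, 12 and 16 counts in senescent replicates 1, 2 and 3. Its senescent level was 0.150 ± 0.0407 CPM, at least 2.62-fold higher than the mean level that 3 counts a control library would give. The gene was below the filter, and without a filter its adjusted p was 0.000489 (edgeR), in a fit where 25.9% of 29776 genes were called higher. For *Cdh15* (ENSMUSG00000031962, chromosome 8 from 122848374 to 122867397), the control libraries gave 2, 5 and 5 counts and the senescent libraries 6, 6 and 4. The groups overlapped, and the log2 fold change without a filter was -0.03 (SE 0.64, adjusted p = 0.969, edgeR), so that only a large change could have been detected at this depth.

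Of 10 listed markers of skeletal muscle, 9 were found and 4 tested, and 3 of these were higher (*Des*, *Myh3* and *Chrna1*), beside 36.2% of all genes tested. *Myh3* and *Chrna1* were under 0.2 CPM in control, where 84.8% of tested genes were called higher. The summed level of the list lay between 15.6 and 21.1 CPM in control and between 16.9 and 29.8 CPM in senescent libraries. Most of this sum was *Acta1*, which had means of 18.5 and 21.5 CPM and was not called. Of the genes that define muscle precursors, *Pax7* and *Myod1* were at 0 in every control library and had between 3 and 11 counts in the senescent libraries, whereas *Myf5* was counted 3, 0 and 0 times in control replicates and was at 0 in every senescent library. No marker of the list was at 0 in every library, and the part of muscle cells in the *Cdh15* values was not tested.

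The 4 type II cadherins among the members were called higher in senescent cells, beside 36.2% of all genes tested. Among them, *Cdh5*, *Cdh6* and *Cdh10* were under 0.2 CPM in control, where 84.8% of tested genes were called higher. The direction did not hold for every cadherin outside the members: of 6 tested, 4 were higher and 1, *Cdh24*, was lower. *Cdh11* (ENSMUSG00000031673, chromosome 8 from 102632995 to 102785111, minus strand), also called OB-cadherin, was at 44.6, 38.3 and 39.3 CPM in the control libraries and at 164, 160 and 185 CPM in the senescent libraries. The lowest senescent value was thus far above the highest control value. The mean went from 40.8 ± 3.40 to 169.6 ± 13.6 CPM, 4.16-fold, with a log2 fold change of 2.06 (SE 0.09, adjusted p = 4.65e-07, edgeR) and a 95% interval from 1.85 to 2.26. No other member gained as much in CPM.

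K-cadherin (*Cdh6*, ENSMUSG00000039385, chromosome 15 from 13034200 to 13173639, minus strand), known from developing kidney and brain, had the largest log2 fold change of the 8 tested members. Its counts were 10, 1 and 10 in control and 198, 334 and 377 in senescent replicates 1, 2 and 3. In CPM, the level was 0.141 ± 0.107 in control and 4.08 ± 0.461 in senescent cells. The log2 fold change was 4.92 (SE 0.38, adjusted p = 1.19e-05, edgeR), with a 95% interval from 4.05 to 5.79 that reflects the few control counts. Without control replicate 2, the log2 fold change was 4.32.

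*Cdh5* and *Cdh10* were higher too, at levels under 1 CPM in every library. *Cdh5* (ENSMUSG00000031871, chromosome 8 from 104101625 to 104144502) went from 3, 4 and 9 counts in control to 30, 36 and 41 counts in senescent replicates, a log2 fold change of 2.25 (SE 0.38, adjusted p = 0.000933, edgeR). *Cdh10* (ENSMUSG00000022321, chromosome 15 from 18818947 to 19014236), a cadherin best known from brain, went from 2, 9 and 4 to 29, 58 and 46 counts, a log2 fold change of 2.66 (SE 0.38, adjusted p = 0.000424, edgeR). The groups did not overlap for either gene. The log2 fold change was 2.90 for *Cdh5* without control replicate 3 and 3.27 for *Cdh10* without control replicate 2, the replicates with the most control counts. For genes this low in control cells, a call in the upward direction was usual: of the 1647 tested genes under 0.2 CPM in control, among them *Cdh5*, *Cdh6* and *Cdh10*, 84.8% were called higher. A gene this low in control passes the filter mainly through its senescent counts.

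Of 10 endothelial markers, 7 were tested beside *Cdh5*, and 5 were higher (*Kdr*, *Vwf*, *Esam*, *Pecam1* and *Tek*) and 2 lower (*Erg* and *Egfl7*). The VEGF receptor gene *Kdr* had a log2 fold change of 3.81 and *Pecam1* of 1.44, whereas *Erg* had -3.43. The summed level went from between 83.6 and 88.3 CPM to between 18.7 and 19.0 CPM, and most of the control sum was *Erg*, with a mean of 80.4 CPM. *Tie1* had at most 2 counts in any library, *Cldn5* was at 0 in every control library, and no marker was at 0 in every library. The part of endothelial cells in the *Cdh5* values was not tested.

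Promoter sequence was at hand for 3 of the 10 genes (RefSeq, GRCm38.p6, the assembly that mm10 names). The 250 bases before the RefSeq start are shown for *Cdh6* and *Cdh10*, which were both higher, and for *Cdh15*, in which no difference was detected, because the study concerned the clock factor BMAL1, which binds the E-box CACGTG, and AP-1, whose site is TGACTCA or TGAGTCA. Letters were searched on both strands, and capitals mark the single match.
Cdh6, chr15:13173676-13173925, minus strand: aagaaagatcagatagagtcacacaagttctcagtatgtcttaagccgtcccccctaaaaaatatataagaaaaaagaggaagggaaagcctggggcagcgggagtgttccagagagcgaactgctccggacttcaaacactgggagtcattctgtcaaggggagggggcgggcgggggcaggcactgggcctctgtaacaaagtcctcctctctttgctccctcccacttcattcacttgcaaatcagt
Cdh10, chr15:18820079-18820328, plus strand: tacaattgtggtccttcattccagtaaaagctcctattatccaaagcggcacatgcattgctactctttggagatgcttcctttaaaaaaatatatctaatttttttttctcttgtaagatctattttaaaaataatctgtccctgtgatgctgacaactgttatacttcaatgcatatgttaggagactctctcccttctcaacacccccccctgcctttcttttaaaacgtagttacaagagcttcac
Cdh15, chr8:122848124-122848373, plus strand: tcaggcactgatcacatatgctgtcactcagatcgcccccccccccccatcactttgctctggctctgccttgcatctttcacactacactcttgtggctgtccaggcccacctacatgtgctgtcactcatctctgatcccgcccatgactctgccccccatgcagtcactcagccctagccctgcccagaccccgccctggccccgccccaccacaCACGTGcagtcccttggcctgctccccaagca

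The E-box in the *Cdh15* sequence began 32 bases before the start, and no E-box lay in the *Cdh6* and *Cdh10* sequences. None of the 3 held the AP-1 site or the letters CACCTG or CAGGTG, an E-box form bound by Snail and ZEB repressors. None of these motifs contains another. Of all 32851 promoters of the same length, 6.02% held the E-box CACGTG, 4.46% the AP-1 site and 17.2% CACCTG or CAGGTG. The sequences differed in base content, with 51.2% G or C and 6 CpG sites in *Cdh6*, 36.8% and 2 in *Cdh10*, and 62.0% and 5 in *Cdh15*, beside a median of 52.4% G or C in all promoters. The RefSeq start of *Cdh10* lay 1382 bases inside the gene of the count table, and that of *Cdh6* lay 36 bases outside it, so these windows need not be the promoters used in MAFs. A match is a description of letters, and nothing about binding was measured here.

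T-cadherin (*Cdh13*, ENSMUSG00000031841, chromosome 8 from 118283733 to 119324921, plus strand), which binds adiponectin, was at 11.7, 11.4 and 10.7 CPM in the control libraries and at 21.7, 22.9 and 20.4 CPM in the senescent libraries. The groups were separate, and the log2 fold change was 0.94 (SE 0.08, adjusted p = 1.85e-05, edgeR), or 1.92-fold, just under the fold limit of the study.

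To compare genes with each other, CPM were divided by the length of each gene in the count table, in kb. In control cells, *Cdh2* had the highest level per length, at 16.1 ± 0.419 CPM per kb, followed by *Cdh11* at 9.67 ± 0.806, *Cdh3* at 6.11 ± 0.108, *Cdh13* at 1.01 ± 0.0440 and *Cdh1* at 0.104 ± 0.0237 CPM per kb (SD, n = 3). The ranges of these neighbors did not overlap. *Cdh6*, *Cdh15* and *Cdh5* followed between 0.0260 and 0.0534 CPM per kb, and within them *Cdh15* overlapped both *Cdh6* and *Cdh5*. *Cdh10* was at 0.00904 CPM per kb and *Cdh4* at 0 counts.

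In senescent cells, the order was *Cdh11* at 40.2 ± 3.23, *Cdh2* at 9.95 ± 0.416, *Cdh13* at 1.95 ± 0.111, *Cdh6* at 1.55 ± 0.175, *Cdh3* at 0.889 ± 0.0436 and *Cdh1* at 0.417 ± 0.0362 CPM per kb (SD, n = 3). *Cdh5*, *Cdh10*, *Cdh15* and *Cdh4* lay below, from 0.124 down to 0.0206 CPM per kb. Only *Cdh15* and *Cdh4* overlapped among neighbors in this order. *Cdh6* had thus moved from below *Cdh1* to above *Cdh3*, and *Cdh3* from the third place to the fifth.

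The summed level of the 10 genes per length was 34.2, 31.9 and 33.2 CPM per kb in the control and 53.6, 52.8 and 59.3 CPM per kb in the senescent libraries, 1.67 times higher on average. Without division by length, the sum went from 207 ± 6.02 to 282 ± 15.7 CPM, 1.37 times higher. For either sum, an exact two-sided permutation test of 3 libraries against 3 gave p = 0.1, the smallest p it can give. In control cells, *Cdh2* made up 48.6 ± 1.02% of the sum per length, *Cdh11* 29.2 ± 1.56% and *Cdh3* 18.5 ± 0.517%. In senescent cells, *Cdh11* made up 72.8 ± 1.15%, *Cdh2* 18.0 ± 0.398%, *Cdh6* 2.81 ± 0.255% and *Cdh3* 1.62 ± 0.173% (SD, n = 3). The share of *Cdh13* was 3.06 ± 0.149% in control and 3.54 ± 0.411% in senescent cells, and the libraries overlapped (exact permutation p = 0.2, adjusted p = 0.222). The share of *Cdh15* overlapped as well (exact permutation p = 0.3). For the other 8 genes the groups were separate, with an exact permutation p of 0.1 each and 0.125 after adjustment over the 10 shares, so that none could pass 0.05 in this design.

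**Figure D2:**
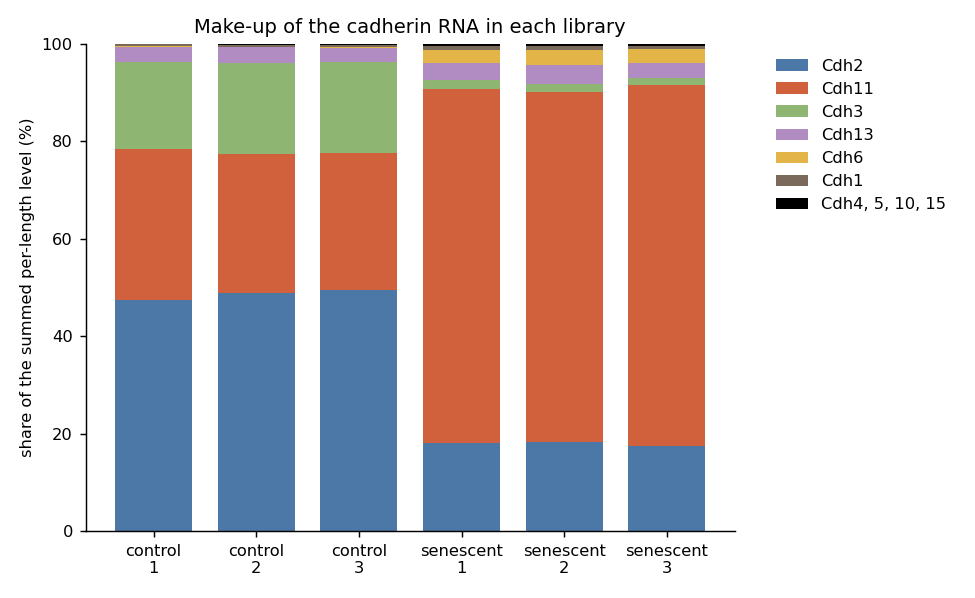
Share of each cadherin gene in the summed level per length (vertical axis, percent) in each of the 6 libraries (1 bar each). *Cdh2* is the largest part of the 3 control bars, *Cdh11* is the largest part of the 3 senescent bars, and the *Cdh3* part shrinks from 18.5% to 1.62% on average.

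Ratios between 2 cadherins of the same library do not depend on how libraries are scaled. The size of each ratio depends on the gene lengths of the count table, while its log2 difference between the groups does not. The log2 ratio of *Cdh2* to *Cdh11* per length was 0.61, 0.78 and 0.81 in the control libraries and -2.00, -1.97 and -2.07 in the senescent libraries. The ratio thus turned from 1.67 times more *Cdh2* to 4.04 times more *Cdh11*, a difference of -2.75. The log2 ratio of *Cdh2* to *Cdh1*, often read as the balance of mesenchymal and epithelial cadherin, was 7.43, 6.87 and 7.48 in control and 4.47, 4.46 and 4.79 in senescent libraries. *Cdh2* still exceeded *Cdh1* 23.8-fold in senescent cells, after 153-fold in control cells. The log2 ratio of *Cdh3* to *Cdh1* went from 5.87 ± 0.33 to 1.09 ± 0.06, the largest of the 4 differences at -4.77. The ratio of *Cdh13* to *Cdh11* went from -3.25 ± 0.09 to -4.37 ± 0.19 on the log2 scale (SD, n = 3), so the fold change of *Cdh13* was the smaller of the pair in these libraries. All 4 ratios were separate between the groups, each with an exact permutation p of 0.1, also after adjustment over the 4 ratios, and 0.1 is the smallest p possible here.

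**Figure D3:**
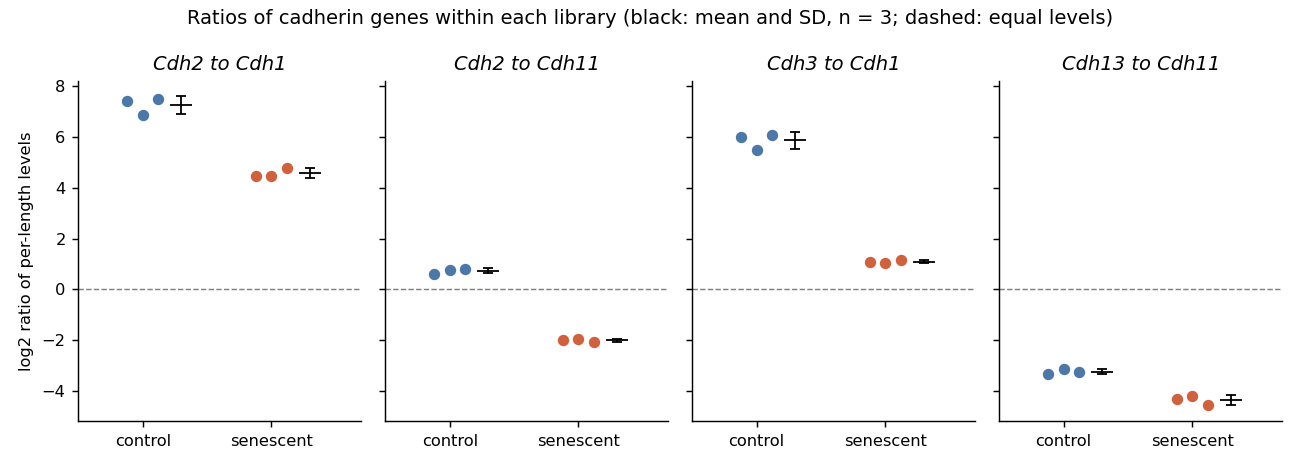
Log2 ratio of the per-length levels of 4 cadherin pairs (vertical axis) in the 3 control and 3 senescent libraries (points), with mean and SD in black and a dashed line at equal levels. The *Cdh2* to *Cdh11* ratio crosses the line between the groups, and the other 3 ratios shift down without crossing it.

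Of the 10 genes, 6 lie on chromosome 8 and 2 on chromosome 15. *Cdh3* and *Cdh1*, which changed in opposite directions, are neighbors on the same strand with 46442 bases between them. The regions described next were chosen after the values had been seen. Between *Cdh3* and *Cdh1* the count table lists 2 genes, of which *Gm10073* was lower (log2 fold change -1.36, adjusted p = 0.00263, edgeR) and the other had 0 counts. Within 200 kb on either side, *Smpd3*, which encodes a sphingomyelinase, and *Has3*, a hyaluronan synthase gene, were higher, with log2 fold changes of 1.07 and 2.69. *Zfp90* and *Tango6*, the latter between *Cdh1* and *Has3*, had log2 fold changes of 0.06 and -0.02 and were not called (adjusted p = 0.541 and 0.856, edgeR). Nearby genes thus did not share a direction.

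On chromosome 15, *Cdh6*, *Cdh9*, *Cdh10*, *Cdh12* and *Cdh18*, all type II genes, follow one another from 13034200 to 23474418. *Cdh18*, which is not a member, was counted 1, 0 and 1 times in control replicates and 85, 108 and 140 times in senescent replicates. The ratio of its pooled counts after scaling was 121, with an exact 95% counting interval from 33.1 to 999.3. *Cdh9* had 0 counts in every control library and 8 counts in each senescent library, at least 1.98-fold higher, and *Cdh12* had 0 counts in every control library and 2, 4 and 3 in the senescent libraries. In all 5 genes of this row the scaled levels of the groups did not overlap, as in 75.3% of all genes tested. That share does not cover genes below the filter, such as *Cdh9* and *Cdh12*. Of the 21 other genes listed in the same stretch, 17 had 0 counts in all libraries and 2 were tested, *Acot10* with a log2 fold change of 0.69 (higher) and *Gm5803* with -1.66 (lower).

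Of the 13 other genes named Cdh that were listed, 6 were tested, of which 4 were higher and 1 lower, with a median log2 fold change of 1.19. Of all genes tested, 36.2% were higher and 34.1% lower. *Cdh18* and *Cdh26*, among these 4, were under 0.2 CPM in control, where 84.8% of tested genes were called higher. Besides *Cdh18*, with a log2 fold change of 6.70 that depends on its 2 control counts (6.09 without control replicate 2), *Cdh26* was higher at 3.32, from 0.0952 ± 0.0217 to 0.958 ± 0.104 CPM. *Cdh23*, which is part of the tip links of hair cells in the inner ear, had 1.27, and *Cdh17*, known from intestine and liver, had 1.12. *Cdh24* was lower, from 6.28 ± 0.696 to 1.61 ± 0.441 CPM, which is -1.98 on the log2 scale. *Cdh19*, a cadherin of Schwann cell precursors, was at 5.39 and 6.34 CPM and was not called (adjusted p = 0.202, edgeR). *Cdh7*, *Cdh8*, *Cdh9*, *Cdh12*, *Cdh16*, *Cdh20* and *Cdh22* were below the filter, and their levels were under 0.3 CPM in every library.

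**Figure D4:**
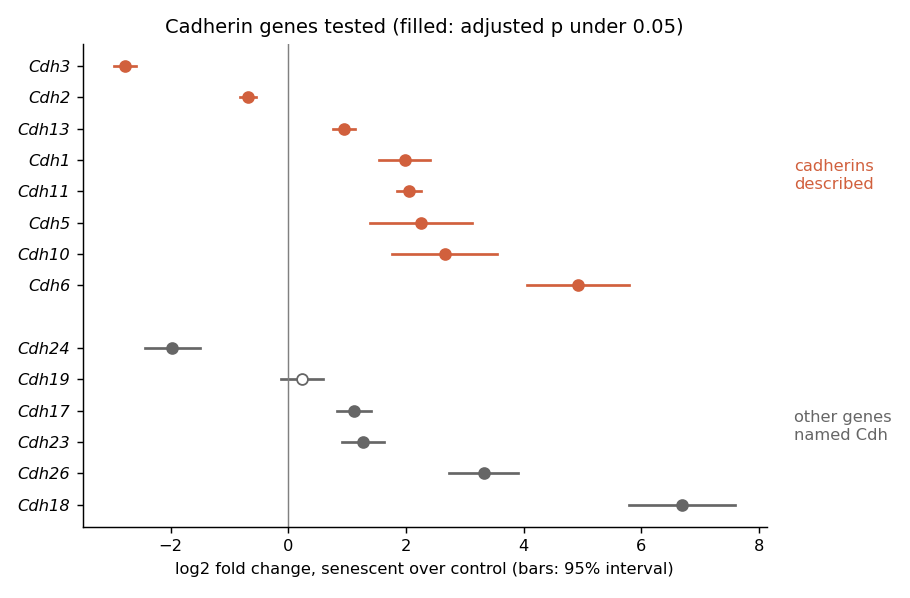
Log2 fold change of senescent over control (horizontal axis, points) with its 95% interval (bars) for the 8 tested cadherins described here and for 6 other tested genes named Cdh. Of the 14 genes, 13 are called at an adjusted p under 0.05 (filled), *Cdh3*, *Cdh2* and *Cdh24* lie below 0, and *Cdh19* is not called (open).

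The catenins that bind cadherin tails changed in both directions. Of 11 catenins and partners, 10 were tested, of which 3 were higher, 4 lower and 3 were not called, with a median log2 fold change of 0.14. Beta-catenin (*Ctnnb1*), which links the cadherin tail to alpha-catenin and also acts in Wnt signaling, fell from 1243 ± 14.1 to 687 ± 5.22 CPM, a log2 fold change of -0.85 (SE 0.05, adjusted p = 2.03e-06, edgeR). The p120 family, which binds near the membrane and keeps cadherins at the surface, did not share a direction: *Ctnnd1*, *Arvcf* and *Pkp4* were lower, with -0.29, -0.90 and -0.37, and *Ctnnd2* was higher, from 0.367 ± 0.0757 to 3.29 ± 0.245 CPM, with 3.16 (adjusted p = 1.57e-06, edgeR). Alpha-catenin (*Ctnna1*) and vinculin (*Vcl*), which tie the complex to actin, were higher, with log2 fold changes of 0.24 and 0.70, and *Vcl* went from 369 ± 2.24 to 599 ± 7.45 CPM. Plakoglobin (*Jup*), a relative of beta-catenin, had control and senescent means of 20.7 and 24.4 CPM and was not called, at a log2 fold change of 0.24 (adjusted p = 0.270, edgeR). Without senescent replicate 3 its log2 fold change was 0.44 with an adjusted p of 4.36e-05 (edgeR).

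Of the nectins, immunoglobulin-like adhesion proteins that form junctions together with cadherins, and their anchor afadin, 5 genes were tested and 4 were higher, with a median log2 fold change of 0.89. Nectin-4 (*Pvrl4*) had the largest log2 fold change of the list, 3.98, from 0.136 ± 0.0653 to 2.23 ± 0.455 CPM. Nectin-1 (*Pvrl1*) went from 12.9 ± 0.305 to 35.3 ± 7.03 CPM, a log2 fold change of 1.45, and nectin-3 (*Pvrl3*) had 0.89. Afadin (*Mllt4*), which ties nectins to actin, went from 77.2 ± 1.73 to 143 ± 7.28 CPM, a log2 fold change of 0.89 (adjusted p = 5.34e-06, edgeR). Nectin-2 (*Pvrl2*) was not called, with a log2 fold change of 0.15 (adjusted p = 0.441, edgeR).

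Transcription factors known as repressors of *Cdh1* split into both directions: of 8 tested, 3 were higher and 5 lower, with a median log2 fold change of -0.51. *Zeb2* went from 36.2 ± 0.676 to 110 ± 11.9 CPM, a log2 fold change of 1.60 (adjusted p = 1.44e-06, edgeR), and *Zeb1* from 98.2 ± 2.04 to 179 ± 12.4 CPM, with 0.87. *Twist1* was higher by 0.34 on the log2 scale. *Snai2* (Slug) fell from 64.8 ± 0.517 to 28.7 ± 4.09 CPM, or by 1.17 on the log2 scale. *Snai1*, *Tcf3*, *Tcf4* and *Twist2* were also lower, with -1.21, -1.37, -0.50 and -0.52.

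Among 9 enzymes that process cadherins, 8 were tested, of which 1 was higher, 3 lower and 4 were not called, with a median log2 fold change of -0.03. The matrix metalloproteinase gene *Mmp3*, whose product can cleave E-cadherin outside the cell, went from 9.89 ± 0.261 to 451 ± 46.1 CPM, and its log2 fold change was 5.51. *Mmp14*, which encodes a protease of the cell surface, fell from 498 ± 13.5 to 268 ± 26.3 CPM, a log2 fold change of -0.89. *Furin*, which removes the prodomain of cadherins, went from 126 ± 12.3 to 85.9 ± 21.5 CPM, with -0.55 (adjusted p = 0.0228, edgeR), and *Adam10*, which sheds several cadherins, had -0.28 (adjusted p = 0.0295, edgeR). The call of *Furin* was lost without control replicate 2 (adjusted p = 0.0702, edgeR) or control replicate 3 (0.0695), and that of *Adam10* when any control replicate or senescent replicate 1 or 2 was left out (adjusted p from 0.0511 to 0.0991, edgeR).

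**Figure D5:**
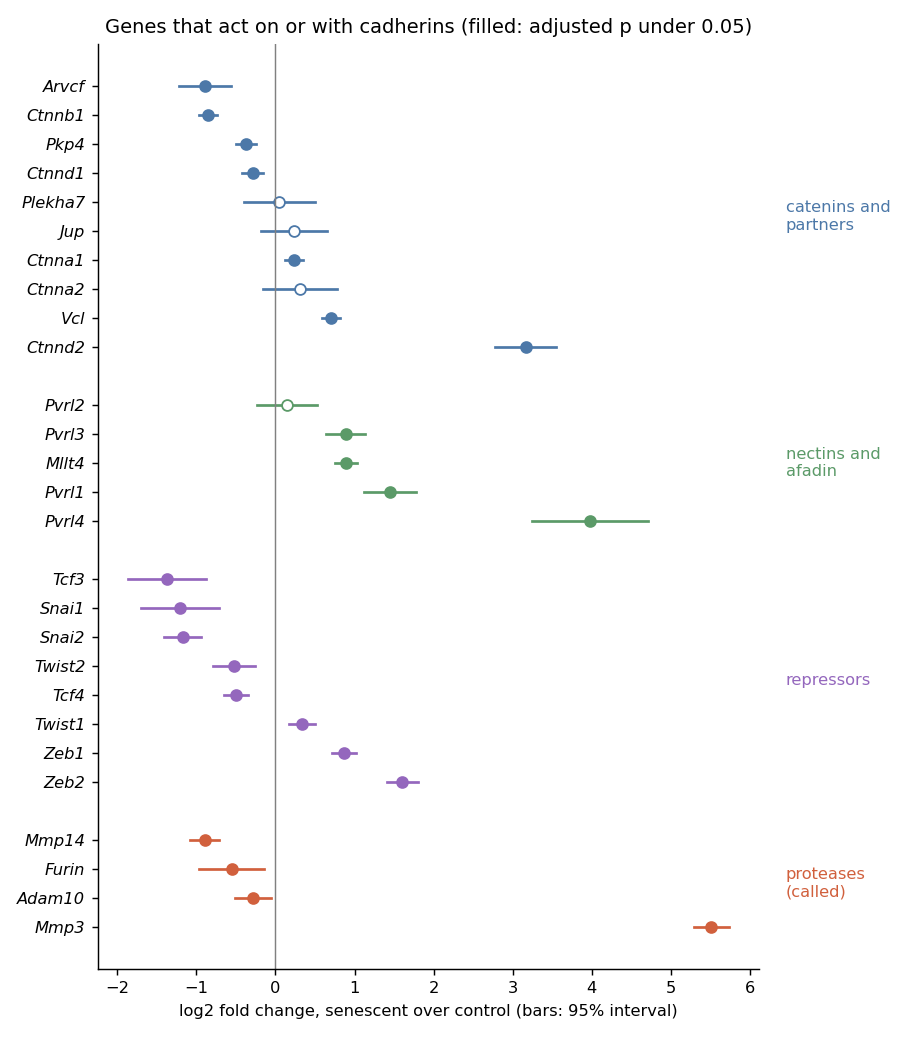
Log2 fold change of senescent over control (horizontal axis, points) with its 95% interval (bars) for tested catenins and partners, nectins and afadin, repressors of *Cdh1*, and the 4 called proteases. Filled points are called at an adjusted p under 0.05. The nectin group lies at or above 0, the other groups spread to both sides, and *Mmp3* and *Pvrl4* lie farthest to the right.

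The labelled cell type was checked against its markers. All 9 fibroblast markers were tested, of which 3 were higher (*Dcn*, *Thy1* and *Lum*) and 5 lower, and their summed level was between 17810 and 19900 CPM in control and between 6709 and 8011 CPM in senescent libraries. Of 10 chondrocyte markers, 9 were tested and all 9 were lower, and the summed level went from between 5042 and 5551 CPM to between 403 and 475 CPM. *Col2a1*, the main collagen of cartilage, had a log2 fold change of -4.02. N-cadherin is known from condensing cartilage precursors, and the part of cartilage cells in the *Cdh2* values was not tested. Of 10 Schwann cell and melanocyte markers, 6 were tested, with 2 higher and 3 lower, and the summed level was between 52.3 and 57.2 CPM in control and between 50.4 and 55.1 CPM in senescent libraries. Most of this sum was *S100b*, with means of 44.4 and 37.8 CPM, so the sum says little of the other markers. *Ngfr*, 1 of the 2 higher genes, went from 0, 0 and 1 counts to 203, 289 and 272 counts. *Sox10*, which defines both cell types, was at 0 in every control library and had 20, 34 and 8 counts in the senescent libraries. Of 7 macrophage markers, 6 were found, and the 5 tested were all higher, with a summed level between 5.71 and 6.48 CPM in control and between 14.0 and 16.5 CPM in senescent libraries. In these 3 lists no marker was at 0 in every library.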

How the data were processed

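Polyadenylated RNA of 3 control and 3 senescent MAF samples was analysed. The columns used of the deposited table are labelled as counts and were taken as raw counts per gene with no normalization. Per the study's methods, the authors quantified genes with Subread, as raw and as normalized values. The paired reads had been placed on mm10 by STAR, run within MAPRSeq. The strand setting and the treatment of reads that match several genes are not given in the sources used here. No exon of another gene (GENCODE M21) overlapped an exon of the 10 cadherins.

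Genes were kept by filterByExpr (17589 of 43346), scaled by TMM (factors 0.968 to 1.03) and compared by edgeR's robust quasi-likelihood test (edgeR 4.0.16, R 4.3.3), with the group as the only term and Benjamini-Hochberg adjustment. The common biological coefficient of variation was 0.100. Shares and ratios of levels per kb were compared by exact permutation tests over samples. For ratios, 0.5 counts were added. The steps were tested on simulated data. Depth ranged from 50288454 to 82229553 counts per library. The limit of 3 counts and the interval of the pooled *Cdh18* ratio cover counting error alone. The 95% intervals of log2 fold changes come from the edgeR fit and include the spread between libraries. Reads carried no molecular identifiers.

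Members and lists were chosen with earlier results of these data known. All members were named, as were the called genes of the lists of other cadherins, catenins, nectins, repressors and processing enzymes, with levels for the 3 of smallest p per list. *Jup*, *Furin* and *Adam10* levels, uncalled genes, single marker genes, *Cdh9*, *Cdh12* and the neighboring genes on chromosomes 8 and 15 were named after their values had been seen. Alternatives were RLE scaling, library size alone, other filters, DESeq2 1.42.0, a replicate block, each library left out, a p limit of 1e-05 (added after seeing the data), no division by length and 2 counts added in ratios. Proteins and most promoters of the members were not used here. Promoters came from RefSeq (GRCm38.p6). Of the processing enzymes, 1 is not reported here by name.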

Additional observations from a re-analysis of the deposited data

How the results depend on the processing

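The 8 tested cadherins kept their direction and their call under every alternative in which they were tested: RLE scaling, library size alone, both other filters, DESeq2, the replicate block and each library left out. Log2 fold changes then ranged from 2.00 to 2.13 for *Cdh11*, from -2.81 to -2.71 for *Cdh3*, from -0.72 to -0.61 for *Cdh2*, from 1.87 to 2.19 for *Cdh1*, from 0.90 to 1.02 for *Cdh13*, from 4.32 to 5.31 for *Cdh6*, from 1.99 to 2.90 for *Cdh5* and from 2.32 to 3.27 for *Cdh10*, with a highest adjusted p of 0.00617 (*Cdh5*, edgeR). With at least 10 counts in every library, *Cdh5*, *Cdh6* and *Cdh10* were not tested, so that 3 cadherins were called higher and 2 passed the limits of the study's methods upward, in place of 5. With library size alone or without a filter, 6 passed them upward, and with an unadjusted p under 1e-05, a limit added after seeing the data, 3 did. With each library left out, 6 cadherins were called higher and 2 lower every time. Shares kept their direction without division by length and with each library left out, and ratios with 2 counts added and with each library left out. Of 29 genes named from the partner lists, 26 kept direction and call throughout. *Adam10* lost its call with library size alone (adjusted p = 0.0891, edgeR), with at least 10 counts in every library (0.0592) and without any library but senescent replicate 3, *Furin* lost it without a filter (0.0982) and without control replicate 2 or 3, and *Jup* gained one without senescent replicate 3. The causes were not tested. Deviations of same-numbered samples from their group means correlated at -0.145, 0.135 and -0.120. Control replicate 1 correlated best with senescent replicate 3 (0.261). Deviations from a mean of 3 libraries are tied to each other, so these values cannot tell whether replicate numbers pair the samples. With the replicate block, 6 cadherins were called higher and 2 lower, and 11624 genes were called in place of 12365. Paired differences of the 4 ratios gave an exact permutation p of 0.25, the smallest that 3 pairs allow. Counts of at most 10 in control libraries limit how well the size of the *Cdh5*, *Cdh6* and *Cdh10* changes is known, and for *Cdh15* only a large change could have been detected.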
